A study of Homo sapiens with 9 samples.

Results

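The genes described here are the ATF4 network and the genes of amino acid supply: kinases and regulators of the translation factor eIF2 alpha, the transcription factor ATF4 and its partners, genes known as ATF4 targets, enzymes of serine, proline, asparagine and cysteine synthesis, and amino acid transporters. They were chosen by name, with earlier results of these data known. All 39 symbols were found through GENCODE release 29 among the 60675 rows of the count table. Gene coordinates below are those of that release, on GRCh38. RNA was measured in HCC827, an established human lung adenocarcinoma cell line with an activating EGFR mutation. The groups were cells that stably expressed the CBX5 hairpin G1, the CBX5 hairpin G7 or the non-silencing control hairpin NS, with 3 libraries each and 9 in all. CBX5 encodes the heterochromatin protein HP1 alpha. All 3 groups, NS included, carried a hairpin and grew in DMEM with serum. The labels do not say whether the libraries of a group came from separate transductions or clones, so p-values measure only the spread between these libraries.

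ATF4 stands at the end of the integrated stress response. Kinases that sense amino acid shortage (GCN2, encoded by EIF2AK4) or misfolded protein in the endoplasmic reticulum (PERK, encoded by EIF2AK3) phosphorylate eIF2 alpha, which lowers translation in general and raises translation of the ATF4 messenger RNA. ATF4 protein then pairs with factors of the C/EBP and AP-1 families and activates genes for amino acid synthesis, uptake and transfer RNA charging. Because much of this control acts on translation and protein turnover, RNA levels report neither eIF2 alpha phosphorylation nor the amount of ATF4 protein.

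The site through which ATF4 is known to bind, the C/EBP-ATF response element, has a core that can be written TGATGNAA. It is shown because it is the sequence that genes of this network share by their known control. RefSeq promoter windows (build GRCh38.p14, 250 bases before to 50 after an annotated start) were matched by symbol for 32 of the 39 genes, in 50 windows. The core was searched on both strands. It stood in a window of 8 of these 32 genes (25.0%), namely ASNS, CEBPG, CHAC1, JDP2, SLC1A4, SLC1A5, SLC3A2 and SLC7A1. The same share was 2.78% among 9652 tested genes with a window, and 3.62% of all 35116 windows. With C at the open base (TGATGCAA, contained in the wider motif), 5 of 32 genes (15.6%) held a match, against 0.736% of tested genes. The ER stress element, the site known for ATF6, was found in 0 of the 32, against 0.145% of tested genes. Many of these genes are known as ATF4 targets, so this is a description of the list and not a finding about it, and a match is not evidence of binding. The stretches around the 5 matches that lie wholly before the start follow, 5′ to 3′ on the gene's strand, with the core in capitals (TTGCATCA is the core read on the other strand). They come from chr7:97872409-97872536, minus strand for ASNS, chr19:33374011-33374112, plus strand for CEBPG, chr15:40953221-40953329, plus strand for CHAC1, chr14:75427946-75428021, plus strand for JDP2 and chr19:46784844-46784971, minus strand for SLC1A5.
ASNS: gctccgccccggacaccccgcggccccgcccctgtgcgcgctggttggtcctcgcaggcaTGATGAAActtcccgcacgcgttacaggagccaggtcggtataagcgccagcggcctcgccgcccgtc
CEBPG: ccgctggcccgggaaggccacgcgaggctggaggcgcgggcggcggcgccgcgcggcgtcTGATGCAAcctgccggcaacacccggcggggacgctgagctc
CHAC1: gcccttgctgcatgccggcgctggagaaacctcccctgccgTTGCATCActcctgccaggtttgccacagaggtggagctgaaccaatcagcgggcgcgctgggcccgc
JDP2: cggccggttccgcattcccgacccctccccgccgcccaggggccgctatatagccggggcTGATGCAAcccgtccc
SLC1A5: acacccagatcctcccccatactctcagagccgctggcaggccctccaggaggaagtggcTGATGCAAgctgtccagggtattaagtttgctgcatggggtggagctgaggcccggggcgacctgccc
The core began 68 bases before the annotated start in ASNS, 42 in CEBPG, 209 in CHAC1, 16 in JDP2 and 97 in SLC1A5. Of these 5 genes, CHAC1 has a single window. The match stood in 1 of 2 windows of ASNS and of CEBPG and in 1 of 3 windows of JDP2 and of SLC1A5, and the other windows of these genes held 0 matches. The SLC1A5 match lies at an internal start within the gene, and the window at its 5′ end held none.

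Libraries held 12701561 to 22372353 counts. Values are given as CPM, counts scaled to the size of the library and by TMM, a method that sets the libraries to a common level. CBX5 itself had 142 ± 0.595 CPM in G1 cells, 203 ± 1.54 CPM in G7 cells and 369 ± 8.11 CPM in NS cells (SD, n = 3 each), and no library of either hairpin reached the NS range. Epithelial markers were present (8 of 10 above 1 CPM, their sum at 14010 to 14220 CPM in G1, 11690 to 12400 CPM in G7 and 9887 to 10890 CPM in NS libraries), while the lung lineage markers NKX2-1 and NAPSA were listed at 0. Of the markers of other cell types, 1 of 6 fibroblast, 1 of 6 leukocyte and 2 of 4 endothelial genes were above 1 CPM, while LUM and CD68 were at 0 and DCN and KDR had 1 count each over all libraries. Endothelial markers summed to 71.2 to 76.9 CPM in G1, 85.8 to 92.5 CPM in G7 and 84.2 to 92.8 CPM in NS libraries, nearly all from PECAM1 and CDH5. Heat shock and immediate early genes, which can mark sample handling, were called as 7 higher and 3 lower of 11 tested with G1, where 30.4% and 28.7% of all genes tested were called higher and lower. With G7 they were 7 higher and 0 lower of 11, where the shares were 13.1% and 9.64%, HSPA8 being at 1720.0 CPM in G1, 913 CPM in G7 and 656 CPM in NS cells. Their part in the results below was not tested. Library 3 of G7 stood apart from the other G7 libraries (chi-square per degree of freedom 22.6 and 17.9, against 1.46 between the other two), with 19.82% of its counts from mitochondrially encoded genes and 13.37% to 17.72% in the other libraries.

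Most of the network was lower with hairpin G1. Of the 39 genes, 38 passed the filter on low counts, and the 39th, ATF5, was listed at 0 in every library. With G1, 32 of the 38 were lower than in NS cells, 5 were higher and 1 was not called, at an adjusted p under 0.05. This is edgeR's quasi-likelihood test, adjusted by Benjamini-Hochberg over all 13264 genes tested. Over all genes tested, 59.1% were called, 28.7% lower and 30.4% higher in the same comparison (3806 and 4031 genes, or 4815 and 3066 with upper quartile scaling). The median log2 change was -0.56 over the 38 genes and -0.01 over all genes tested. A fall of more than 2-fold was called for 11 of the 38, against 5.27% of all genes tested. None rose by more than 2-fold, against 2.19% of all genes tested. The 11 were DDIT3, CHAC1, NUPR1, ASNS, GDF15, DDIT4, PSAT1, CBS, CTH, PYCR1 and PPP1R15A. All 3 G1 libraries lay below all 3 NS libraries for 33 of the 38 genes and above them for 5, against 31.6% and 32.5% of all genes. In bulk RNA, less RNA in each cell and fewer cells that hold the RNA cannot be told apart.

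With hairpin G7, which lowered CBX5 less, 18 of the 38 genes were lower, 1 was higher and 19 were not called. Over all genes tested, 22.7% were called with G7, 9.64% lower and 13.1% higher (1279 and 1735 genes, or 1603 and 1398 with upper quartile scaling). The median log2 change was -0.16 over the 38 genes and 0.01 over all genes. A fall of more than 2-fold was called for 0 of the 38 with G7, and for 0.264% of all genes, and a rise of that size for 0 of the 38 and 0.181% of all genes. The G7 libraries lay wholly below the NS libraries for 20 of the 38 genes and wholly above for 2, against 15.9% and 19.3% of all genes. In the direct comparison, 30 of the 38 genes were lower in G1 cells than in G7 cells, 4 were higher and 4 were not called, against 21.6% lower and 23.3% higher over all genes, or 44.9% called in all. The libraries of G1 lay wholly below those of G7 for 32 of the 38 genes and wholly above for 4, against 26.6% and 27% of all genes. Without library 3 of G7, 17 were lower and 2 higher with G7, and 28 were lower and 3 higher in the direct comparison. Both comparisons with NS share the same 3 NS libraries, so their values are given side by side.

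**Figure D1:**
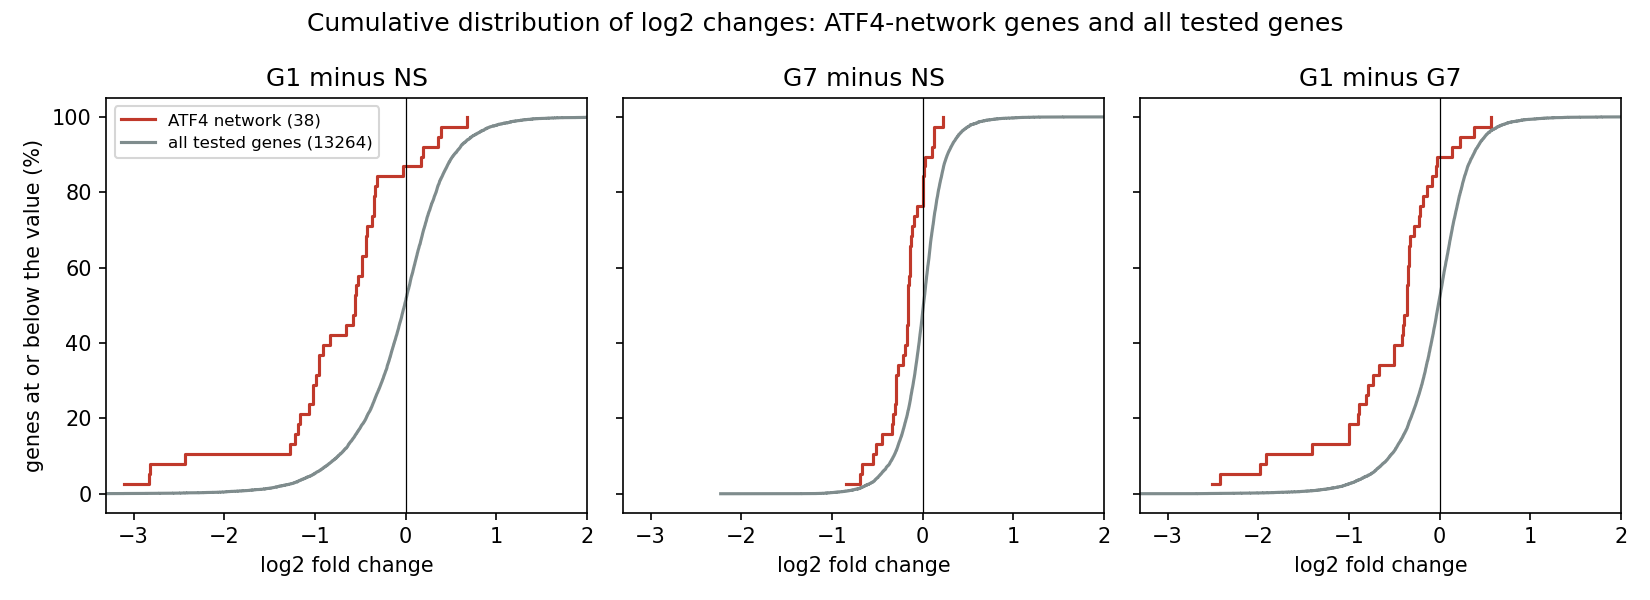
Cumulative share of genes (%, vertical axis) at or below each log2 fold change (horizontal axis), for the 38 tested ATF4-network genes in red and all 13264 tested genes in grey, in G1 minus NS, G7 minus NS and G1 minus G7. The red curve lies to the left of the grey one around its middle in each panel, with medians of -0.56, -0.16 and -0.36 against -0.01, 0.01 and -0.01.

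In the eIF2 alpha group, 2 of 5 genes were called higher and 3 lower with G1, against 30.4% and 28.7% of all genes tested. Besides genes that set eIF2 alpha phosphorylation, it holds EIF2S1, the gene of their target, and EIF4EBP1. With 5 genes these counts are no result about the group. EIF2S1 (chr14:67359997-67386516), which encodes eIF2 alpha itself, and EIF2AK4 (chr15:39934146-40035591), which encodes the amino acid sensor GCN2, were higher, while EIF2AK3 (chr2:88556741-88627576), which encodes the ER sensor PERK, was lower. PPP1R15A (chr19:48872392-48876057) encodes GADD34, the stress-induced subunit of the phosphatase that reverses eIF2 alpha phosphorylation. PPP1R15A had 37.8, 39.0 and 38.2 CPM in G1 libraries, 71.4, 66.8 and 76.5 CPM in G7 libraries and 80.8, 77.2 and 75.3 CPM in NS libraries. G1 libraries lay well below all others, while G7 and NS libraries overlapped. Against NS its log2 change was -1.02 ± 0.0567 (SE) with G1 (adjusted p = 3.39e-11) and -0.12 ± 0.0530 with G7 (adjusted p = 0.126). The G7 value passed without G7 replicate 3 (-0.16, adjusted p = 0.0259).

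EIF2S1 had 144, 154 and 156 CPM in G1 libraries, 100.1, 104 and 102 CPM in G7 libraries and 95.5, 101 and 87.8 CPM in NS libraries. The G1 libraries were the highest and those of G7 and NS overlapped. On the log2 scale it differed from NS by 0.68 ± 0.0514 (SE) with G1 (adjusted p = 2.28e-09) and 0.11 ± 0.0520 with G7 (adjusted p = 0.146). EIF2AK4 had 59.7, 61.6 and 65.4 CPM in G1 libraries, 54.7, 54.2 and 50.4 CPM in G7 libraries and 49.7, 48.4 and 47.5 CPM in NS libraries. Each hairpin's libraries lay above all NS libraries, those of G1 by more. Set against NS, the log2 change came to 0.36 ± 0.0544 (SE) with G1 (adjusted p = 1.65e-05) and 0.13 ± 0.0545 with G7 (adjusted p = 0.0962), and the G7 call was made only without G7 replicate 3 (0.17, adjusted p = 0.0326). EIF2AK3 had 11.9, 13.3 and 12.7 CPM in G1 libraries, 14.3, 14.8 and 15.3 CPM in G7 libraries and 19.5, 18.8 and 17.7 CPM in NS libraries. All hairpin libraries lay below the NS range, G1 lowest. The log2 change against NS was -0.56 ± 0.0804 (SE) with G1 (adjusted p = 9.23e-06) and -0.33 ± 0.0772 with G7 (adjusted p = 0.00457). EIF4EBP1, an inhibitor of cap-dependent translation and a known ATF4 target, changed by -0.34 with G1 (adjusted p = 0.000102), and its value with G7 was 0.00 (adjusted p = 0.979). The summed level of the 5 genes was 293 ± 9.22 CPM in G1 libraries, 278 ± 3.93 CPM in G7 libraries and 276 ± 8.52 CPM in NS libraries (SD, n = 3 each).

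The transcription factors fell with G1 except CEBPB (1 higher and 5 lower of 6 tested, against 30.4% and 28.7% of all genes tested). ATF4 (chr22:39519695-39522685), the central activator, was the gene of the network with the highest level per length of merged exons in NS cells. ATF4 had 373, 381 and 366 CPM in G1 libraries, 489, 482 and 467 CPM in G7 libraries and 547, 537 and 561 CPM in NS libraries. The 3 groups did not overlap, and G7 lay between G1 and NS. Against NS its log2 change was -0.55 ± 0.0400 (SE) with G1 (adjusted p = 1.24e-09) and -0.19 ± 0.0397 with G7 (adjusted p = 0.00163), and the G1 minus G7 difference was -0.36 ± 0.0399 (adjusted p = 8.92e-07). DDIT3 (chr12:57516588-57521737) encodes CHOP, a C/EBP-family factor induced by ER stress. DDIT3 had 0.237, 0.369 and 0.578 CPM in G1 libraries, 1.95, 1.99 and 2.38 CPM in G7 libraries and 2.87, 4.05 and 3.27 CPM in NS libraries. The G1 libraries rest on 4, 7 and 9 counts, and the groups did not overlap. On the log2 scale it differed from NS by -3.11 ± 0.277 (SE) with G1 (adjusted p = 2.04e-08) and -0.69 ± 0.186 with G7 (adjusted p = 0.0118). The G7 call ended with DESeq2 (-0.69, adjusted p = 0.0676) or without NS replicate 2 (-0.55, adjusted p = 0.079). Exons of MARS on the other strand cover 27.2% of the DDIT3 exons, and the strand setting of the counting is not given, so the DDIT3 level is uncertain. MARS, the methionyl-tRNA synthetase gene, changed by -0.18 with G1 (adjusted p = 0.00244).

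NUPR1 (chr16:28532708-28539174) encodes a small stress-induced regulator of transcription. NUPR1 had 1.54, 0.843 and 0.963 CPM in G1 libraries, 4.49, 4.97 and 3.82 CPM in G7 libraries and 7.25, 7.69 and 8.57 CPM in NS libraries. G1 libraries were lowest and NS libraries highest, with no overlap. Set against NS, the log2 change came to -2.82 ± 0.189 (SE) with G1 (adjusted p = 4.34e-10) and -0.84 ± 0.139 with G7 (adjusted p = 0.000265). CEBPG (chr19:33373330-33382686) encodes a C/EBP protein that pairs with ATF4, and its promoter window holds the core printed above. CEBPG had 44.8, 47.0 and 42.5 CPM in G1 libraries, 55.9, 61.8 and 54.5 CPM in G7 libraries and 74.0, 70.7 and 67.8 CPM in NS libraries. The order of the groups was again G1, G7, NS from low to high, without overlap. The log2 change against NS was -0.66 ± 0.0596 (SE) with G1 (adjusted p = 2.57e-08) and -0.30 ± 0.0577 with G7 (adjusted p = 0.000914). JDP2, an AP-1 repressor, changed by -0.53 with G1 (adjusted p = 7.65e-08). With G7 it had -0.12 (adjusted p = 0.0866), which passed with upper quartile scaling (-0.15, adjusted p = 0.0397) or without G7 replicate 3 (-0.16, adjusted p = 0.0378). CEBPB, another ATF4 partner, rose with both hairpins, by 0.20 with G1 (adjusted p = 0.00118) and 0.22 with G7 (adjusted p = 0.00181). G1 and G7 did not differ for it beyond their spread (difference -0.02 ± 0.0452, adjusted p = 0.697). ATF5, a factor translated under stress like ATF4, was listed at 0 in all 9 libraries. Exons of NUP62 on the other strand cover 21.2% of its exons, and NUP62, which encodes a core nuclear pore protein, was also listed at 0, so this 0 is no measure of ATF5 RNA.

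**Figure D2:**
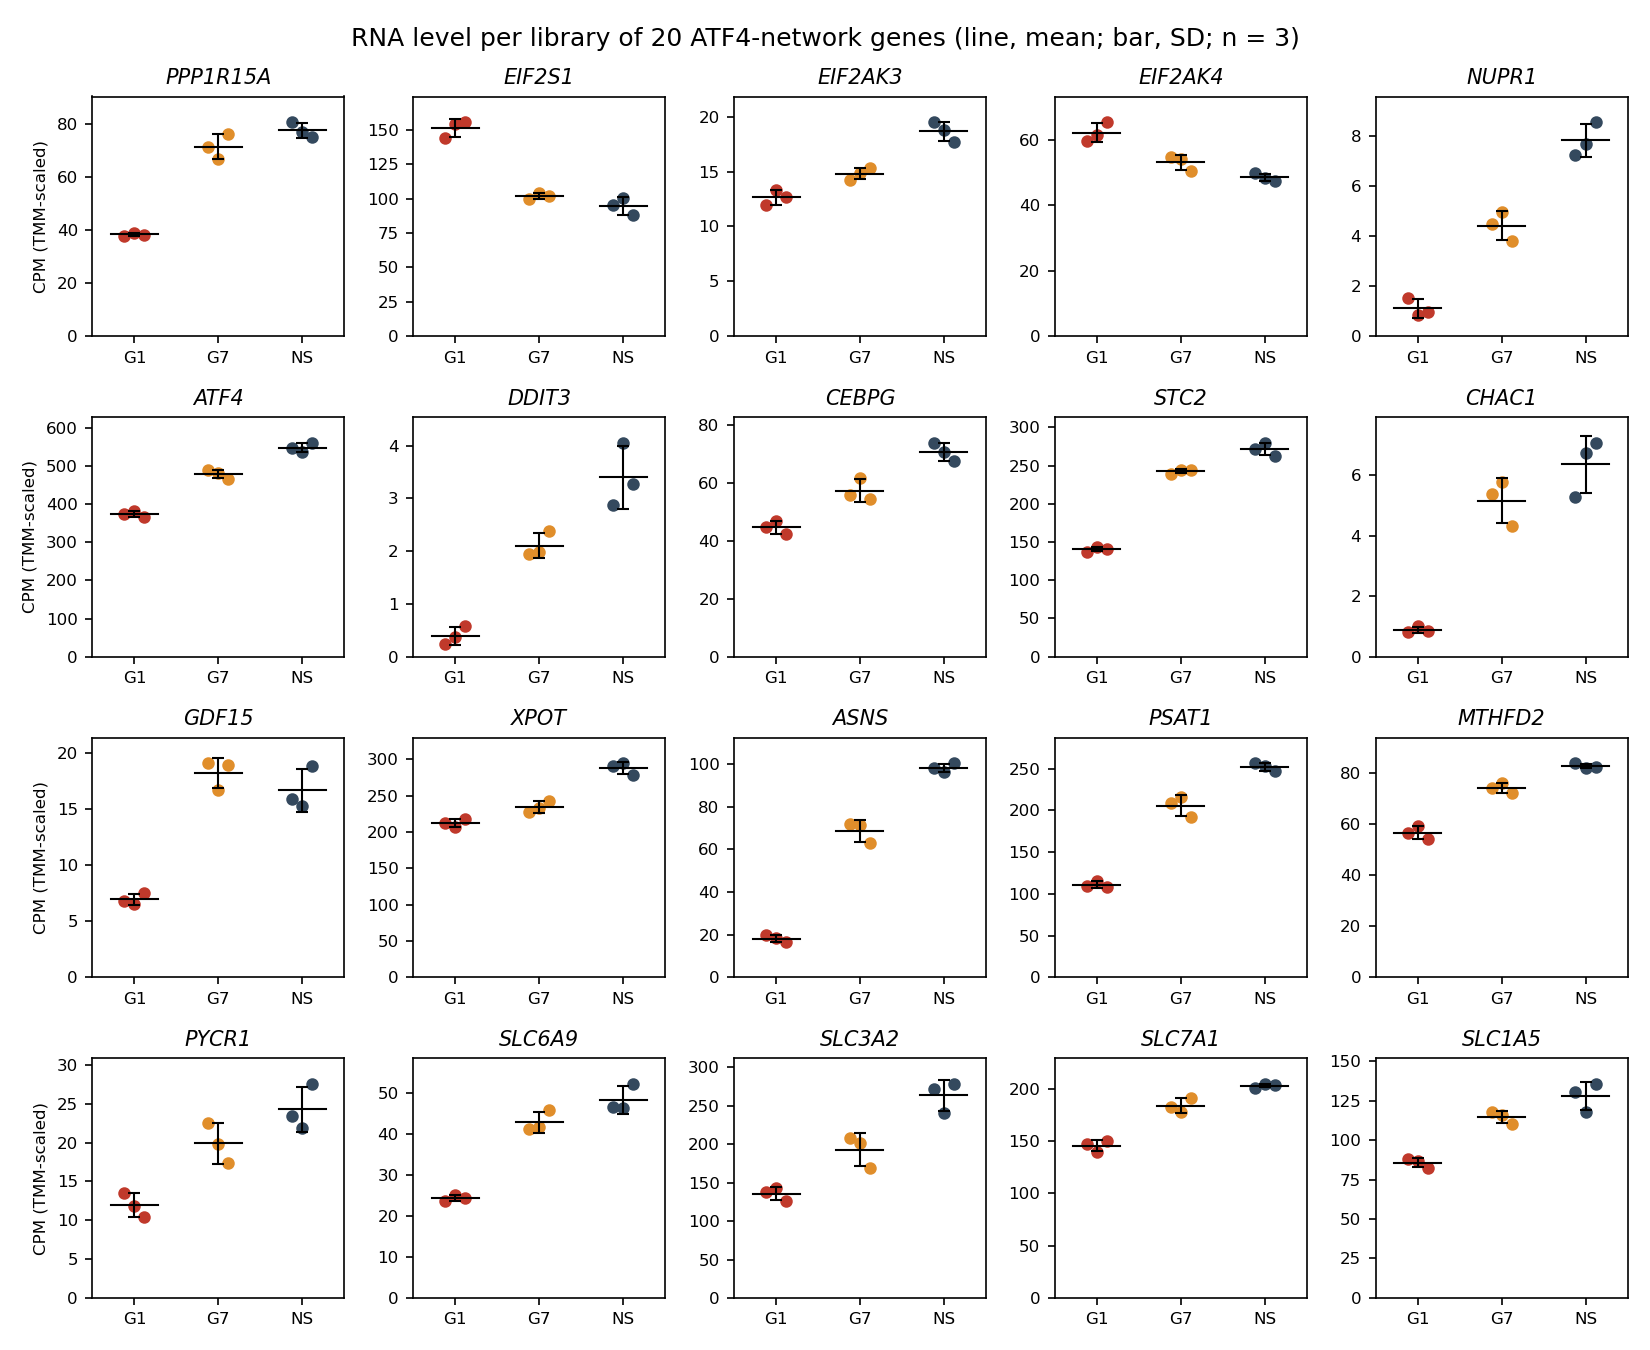
Level in CPM (vertical axes, each from 0, TMM-scaled) of 20 genes of the network, the 4 of each role group with the smallest p in G1 minus NS, in each G1 (red), G7 (orange) and NS (dark) library, with mean (line) and SD (bar) over 3 libraries. The G1 points of EIF2S1 and EIF2AK4 lie above all NS points, and those of the other 18 genes lie below them.

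All 8 stress effectors were lower with G1, and 2 of them, STC2 and XPOT, with G7. The shares called lower over all genes tested were 28.7% with G1 and 9.64% with G7. CHAC1 (chr15:40952962-40956519), an enzyme that degrades glutathione, had one of the 3 largest falls of the network with G1, beside DDIT3 and NUPR1. CHAC1 had 0.830, 1.0 and 0.834 CPM in G1 libraries, 5.38, 5.77 and 4.33 CPM in G7 libraries and 5.29, 6.73 and 7.08 CPM in NS libraries. The G1 libraries lay far below the others, and G7 and NS libraries overlapped. Against NS its log2 change was -2.83 ± 0.203 (SE) with G1 (adjusted p = 1.09e-09) and -0.33 ± 0.139 with G7 (adjusted p = 0.1). The G7 value passed without NS replicate 1 (-0.43, adjusted p = 0.0473). The G1 minus G7 difference was -2.51 ± 0.204 (adjusted p = 1.75e-08). GDF15 (chr19:18374731-18389176) encodes a secreted stress hormone that acts on appetite. GDF15 had 6.82, 6.48 and 7.51 CPM in G1 libraries, 19.0, 16.6 and 18.9 CPM in G7 libraries and 15.9, 15.2 and 18.8 CPM in NS libraries. G1 libraries were lowest, and G7 and NS libraries overlapped. On the log2 scale it differed from NS by -1.27 ± 0.107 (SE) with G1 (adjusted p = 9.34e-09) and 0.13 ± 0.0905 with G7 (adjusted p = 0.338), and the G1 minus G7 difference was -1.40 ± 0.102 (adjusted p = 4.05e-09).

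STC2 (chr5:173314713-173329503) encodes the secreted glycoprotein stanniocalcin 2. STC2 had 138, 143 and 141 CPM in G1 libraries, 239.5, 245 and 245 CPM in G7 libraries and 272, 279.9 and 263 CPM in NS libraries. The groups did not overlap and G7 lay close to NS. Set against NS, the log2 change came to -0.95 ± 0.0407 (SE) with G1 (adjusted p = 8.93e-13) and -0.16 ± 0.0395 with G7 (adjusted p = 0.00654). XPOT (chr12:64404350-64451127) encodes the exportin of transfer RNA. XPOT had 212, 207 and 218 CPM in G1 libraries, 228, 232 and 243 CPM in G7 libraries and 290.5, 294 and 279 CPM in NS libraries. Here the G7 libraries lay nearer to G1 than to NS. The log2 change against NS was -0.44 ± 0.0418 (SE) with G1 (adjusted p = 4.79e-08) and -0.30 ± 0.0414 with G7 (adjusted p = 4.96e-05). DDIT4, an mTORC1 inhibitor, changed by -1.22 with G1 (adjusted p = 1.70e-06), and exons of DDIT4-AS1, listed at 0, cover 41.2% of its own. SESN2, a leucine sensor, changed by -0.84 with G1 (adjusted p = 3.93e-07). The pseudokinase gene TRIB3, which restrains ATF4 and CHOP, changed by -0.43 (adjusted p = 2.55e-06). With G7 these 3 had values of -0.22, -0.17 and -0.09 and were not called. VLDLR, a lipoprotein receptor, had -0.37 with G1 (adjusted p = 0.0253), a call that ended with DESeq2 (-0.36, adjusted p = 0.107), without G1 replicate 1 (-0.36, adjusted p = 0.0618), without G1 replicate 2 (-0.29, adjusted p = 0.115), without NS replicate 1 (-0.28, adjusted p = 0.126) or without NS replicate 2 (-0.37, adjusted p = 0.0528).

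Of the 11 genes of amino acid synthesis, 9 fell with G1 and 2 rose, against 28.7% and 30.4% of all genes tested. ASNS (chr7:97852118-97872542), the enzyme that makes asparagine, showed the largest fall among them, and its promoter window holds a core printed above. ASNS had 19.6, 18.4 and 16.4 CPM in G1 libraries, 72.0, 71.5 and 62.8 CPM in G7 libraries and 97.9, 96.2 and 100.3 CPM in NS libraries. The groups did not overlap, and G7 lay much nearer to NS than to G1. Against NS its log2 change was -2.43 ± 0.0687 (SE) with G1 (adjusted p = 4.02e-15) and -0.51 ± 0.0584 with G7 (adjusted p = 5.91e-06), and the G1 minus G7 difference was -1.92 ± 0.0692 (adjusted p = 8.04e-13). A same-strand transcript, AC079781.5, which is not a row of the table, covers 44.6% of the ASNS exons, so how its reads were assigned is uncertain.

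The serine pathway did not move as a block. PHGDH makes the starting step from a glycolytic intermediate, PSAT1 (chr9:78297143-78330093) the middle step and PSPH the last. PSAT1 had 109, 115 and 109 CPM in G1 libraries, 209, 216 and 192 CPM in G7 libraries and 256, 253 and 247 CPM in NS libraries. On the log2 scale it differed from NS by -1.18 ± 0.0479 (SE) with G1 (adjusted p = 4.45e-13) and -0.29 ± 0.0461 with G7 (adjusted p = 0.000164). PSAT1 libraries followed the order G1, G7, NS from low to high without overlap. PHGDH changed by -0.35 with G1 (adjusted p = 2.04e-05) and -0.17 with G7 (adjusted p = 0.0298), the G7 call ending without G7 replicate 3 (-0.11, adjusted p = 0.0991), without NS replicate 1 (-0.16, adjusted p = 0.083) or without NS replicate 3 (-0.12, adjusted p = 0.144). PSPH was higher with G1, by 0.39 ± 0.0545 (adjusted p = 5.83e-06), at 75.9 ± 3.85 CPM in G1 cells, 58.2 ± 3.32 CPM in G7 cells and 57.8 ± 0.778 CPM in NS cells (SD, n = 3 each). With G7 PSPH was at 0.01 on the log2 scale (adjusted p = 0.93).

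Downstream of serine, SHMT2 and MTHFD2 (chr2:74198562-74217565) carry its folate-linked carbon in mitochondria. MTHFD2 had 56.7, 59.3 and 54.1 CPM in G1 libraries, 74.4, 76.2 and 72.3 CPM in G7 libraries and 83.9, 82.2 and 82.6 CPM in NS libraries. The groups did not overlap, though G7 and NS lay close. Set against NS, the log2 change came to -0.55 ± 0.0487 (SE) with G1 (adjusted p = 2.06e-08) and -0.16 ± 0.0472 with G7 (adjusted p = 0.021), and the G7 call ended without G7 replicate 1 (-0.16, adjusted p = 0.0584), without G7 replicate 3 (-0.14, adjusted p = 0.055) or without NS replicate 1 (-0.15, adjusted p = 0.0705). Exons of SLC4A5 on the other strand, listed at 0, cover 27.2% of the MTHFD2 exons. SHMT2 changed by -0.42 with G1 (adjusted p = 5.54e-07). With G7 it had -0.14 (adjusted p = 0.0431), and that call ended with DESeq2 (-0.14, adjusted p = 0.0533), in libraries thinned to 1 depth (-0.12, adjusted p = 0.0668), without G1 replicate 2 (-0.14, adjusted p = 0.0566), without G7 replicate 1 (-0.14, adjusted p = 0.0827), without G7 replicate 3 (-0.10, adjusted p = 0.126), without NS replicate 1 (-0.14, adjusted p = 0.0955), without NS replicate 2 (-0.15, adjusted p = 0.0582) or without NS replicate 3 (-0.12, adjusted p = 0.125).

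In proline synthesis the 2 enzymes differed in direction with G1. PYCR1 had 13.6, 11.8 and 10.5 CPM in G1 libraries, 22.6, 19.8 and 17.3 CPM in G7 libraries and 23.4, 21.8 and 27.6 CPM in NS libraries. PYCR1 (chr17:81932384-81942412) catalyses the last step, and its G1 libraries lay below all others while G7 and NS overlapped. The log2 change against NS was -1.03 ± 0.114 (SE) with G1 (adjusted p = 3.97e-07) and -0.29 ± 0.104 with G7 (adjusted p = 0.052). The G7 value passed with RLE scaling (-0.30, adjusted p = 0.0471), with upper quartile scaling (-0.32, adjusted p = 0.0393), with no filter on low counts (-0.29, adjusted p = 0.00488), with a filter of at least 1 CPM in 3 libraries (-0.30, adjusted p = 0.0485), with the replicate number as a block (-0.30, adjusted p = 0.0396), without mitochondrially encoded genes (-0.30, adjusted p = 0.042), without G1 replicate 1 (-0.31, adjusted p = 0.0478), without G1 replicate 3 (-0.29, adjusted p = 0.0448), without G7 replicate 1 (-0.40, adjusted p = 0.0157) or without NS replicate 2 (-0.36, adjusted p = 0.036). Exons of MYADML2 on the same strand, listed at 0, cover 14.1% of the PYCR1 exons. ALDH18A1, the enzyme upstream of it, was higher with G1 by 0.17 (adjusted p = 0.00405), which ended with upper quartile scaling (0.09, adjusted p = 0.114). The cysteine-forming enzymes CBS and CTH, both at low levels, changed by -1.17 (adjusted p = 2.03e-06) and -1.06 (adjusted p = 1.70e-06) with G1. With G7 CBS changed by -0.67 (adjusted p = 0.00147), and CTH had -0.06 (adjusted p = 0.744). GPT2, the mitochondrial alanine transaminase, changed by -0.48 with G1 (adjusted p = 6.54e-06) and had -0.13 with G7 (adjusted p = 0.155).

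**Figure D3:**
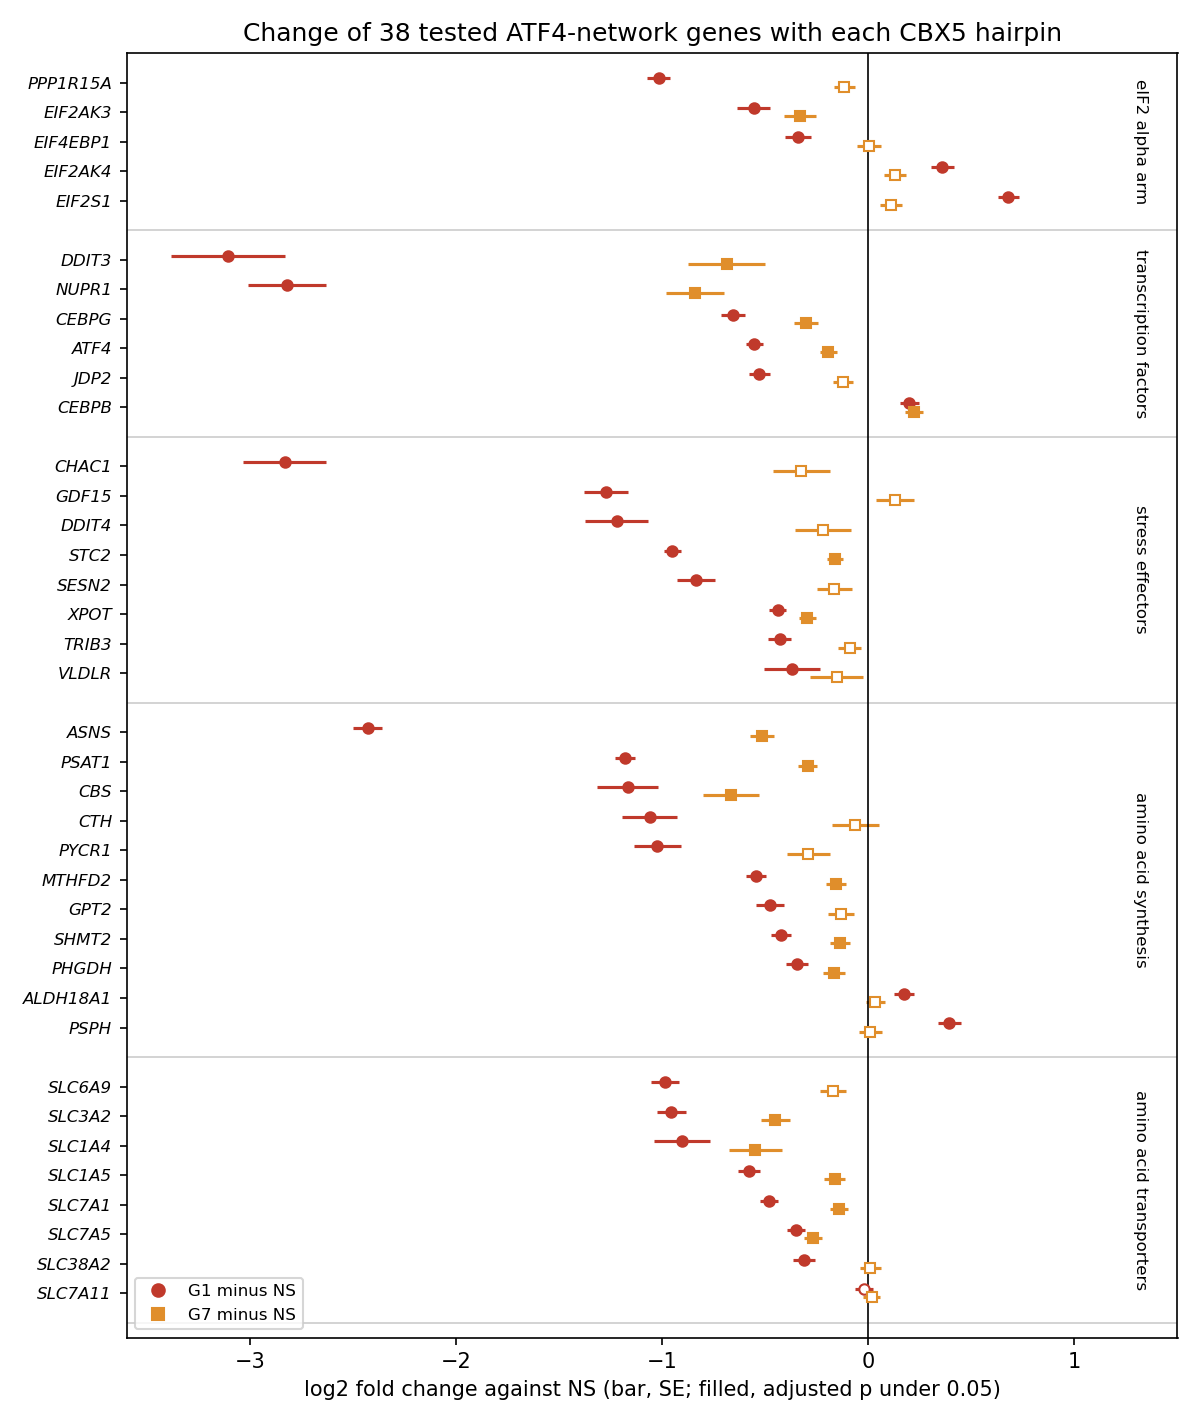
Log2 fold change against NS (horizontal axis, bars give the SE) of the 38 tested genes with G1 (red circles) and G7 (orange squares), filled where the adjusted p is under 0.05, in 5 role groups. With G1 the values run from -3.11 for DDIT3 to 0.68 for EIF2S1, and with G7 from -0.84 for NUPR1 to 0.22 for CEBPB.

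Of the 8 amino acid transporters, 7 fell with G1, against 28.7% of all genes tested, and SLC7A11 was not called. SLC3A2 (chr11:62856102-62888875) encodes the heavy chain (CD98hc) that carries SLC7A5 and SLC7A11 to the cell surface. SLC3A2 had 138, 143 and 126 CPM in G1 libraries, 208, 202 and 169 CPM in G7 libraries and 272, 241 and 278 CPM in NS libraries. The groups did not overlap, and library 3 of G7 was the lowest of its group. Against NS its log2 change was -0.96 ± 0.0703 (SE) with G1 (adjusted p = 1.56e-09) and -0.45 ± 0.0688 with G7 (adjusted p = 0.000125). SLC6A9 (chr1:43991500-44031467) encodes the glycine transporter GLYT1. SLC6A9 had 23.6, 25.2 and 24.4 CPM in G1 libraries, 41.2, 41.7 and 45.9 CPM in G7 libraries and 46.5, 46.3 and 52.2 CPM in NS libraries. G1 libraries lay far below those of G7, which lay just below the NS range. On the log2 scale it differed from NS by -0.99 ± 0.0674 (SE) with G1 (adjusted p = 5.71e-10) and -0.17 ± 0.0625 with G7 (adjusted p = 0.0533). The G7 value passed with RLE scaling (-0.18, adjusted p = 0.0478), with upper quartile scaling (-0.20, adjusted p = 0.0304), with a filter of at least 1 CPM in 3 libraries (-0.18, adjusted p = 0.0459), with the replicate number as a block (-0.17, adjusted p = 0.0346), without mitochondrially encoded genes (-0.18, adjusted p = 0.0433) or without G7 replicate 3 (-0.22, adjusted p = 0.0113).

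SLC7A1 (chr13:29509410-29595688) encodes CAT1, which imports arginine and lysine. SLC7A1 had 147, 139.7 and 150.2 CPM in G1 libraries, 183, 178 and 192 CPM in G7 libraries and 201, 205 and 204 CPM in NS libraries. No group overlapped another. Set against NS, the log2 change came to -0.48 ± 0.0435 (SE) with G1 (adjusted p = 2.47e-08) and -0.14 ± 0.0428 with G7 (adjusted p = 0.0225), the G7 call ending without G7 replicate 1 (-0.13, adjusted p = 0.0744), without G7 replicate 2 (-0.12, adjusted p = 0.109), without NS replicate 1 (-0.15, adjusted p = 0.0503) or without NS replicate 2 (-0.14, adjusted p = 0.0653). SLC1A5 (chr19:46774883-46788594) encodes the glutamine transporter ASCT2. SLC1A5 had 88.0, 86.5 and 82.6 CPM in G1 libraries, 118, 116 and 110.1 CPM in G7 libraries and 131, 118 and 136 CPM in NS libraries. Each G1 library lay below each G7 library, and the highest G7 library was just under the lowest NS library. The log2 change against NS was -0.58 ± 0.0528 (SE) with G1 (adjusted p = 2.69e-08) and -0.16 ± 0.0514 with G7 (adjusted p = 0.0284), the G7 call ending without G7 replicate 2 (-0.17, adjusted p = 0.058), without G7 replicate 3 (-0.13, adjusted p = 0.0676), without NS replicate 1 (-0.15, adjusted p = 0.0979) or without NS replicate 3 (-0.12, adjusted p = 0.134).

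Of the light chains that pair with CD98hc, SLC7A5 was called and SLC7A11 was not. SLC7A5 (LAT1), which exchanges large neutral amino acids, changed by -0.35 with G1 (adjusted p = 1.70e-06) and -0.27 with G7 (adjusted p = 0.000213). SLC7A11 had 82.2, 84.5 and 84.4 CPM in G1 libraries, 85.0, 87.0 and 85.9 CPM in G7 libraries and 85.2, 85.1 and 84.8 CPM in NS libraries. SLC7A11 (xCT), which imports cystine, thus varied little over the 9 libraries. Its log2 change was -0.02 ± 0.0427 with G1 (adjusted p = 0.663) and 0.02 ± 0.0423 with G7 (adjusted p = 0.84). The G1 value passed only with upper quartile scaling (-0.11, adjusted p = 0.0297). SLC1A4 (ASCT1), an exchanger of alanine, serine and cysteine, changed by -0.91 with G1 (adjusted p = 1.60e-05) and -0.55 with G7 (adjusted p = 0.0045). SLC38A2 (SNAT2), a sodium-coupled importer of small neutral amino acids, changed by -0.31 with G1 (adjusted p = 4.38e-05), and its value with G7 was 0.01 (adjusted p = 0.922).

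Summed over genes, the synthesis group was at 778 ± 30.1 CPM in G1 libraries, 998 ± 54.8 CPM in G7 libraries and 1136 ± 27.7 CPM in NS libraries (SD, n = 3 each), and the transporter group at 1140.0 ± 25.5 CPM in G1 libraries, 1424 ± 56.8 CPM in G7 libraries and 1561 ± 41.7 CPM in NS libraries (SD, n = 3 each). The stress effectors summed to 490.0 ± 2.25 CPM in G1 libraries, 675 ± 1.3 CPM in G7 libraries and 772 ± 1.34 CPM in NS libraries (SD, n = 3 each), and the transcription factors to 673 ± 8.89 CPM in G1 libraries, 813 ± 15.7 CPM in G7 libraries and 876 ± 21.8 CPM in NS libraries (SD, n = 3 each). In these 4 groups each G1 library lay below each G7 library, and each G7 library below each NS library. A sum is set mostly by its most abundant genes.

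**Figure D4:**
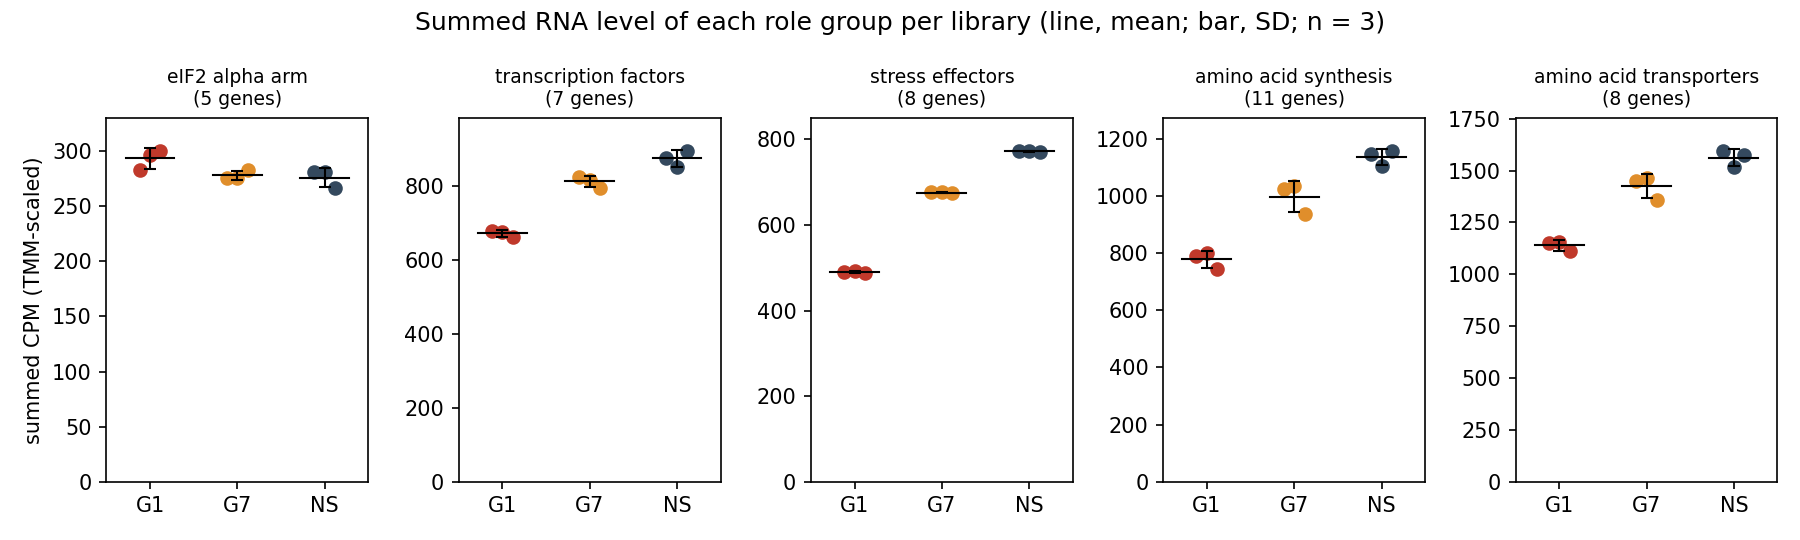
Summed CPM (vertical axes, each from 0) of the genes of each role group in every G1 (red), G7 (orange) and NS (dark) library, with mean (line) and SD (bar) over 3 libraries. The eIF2 alpha group lies at 293 CPM in G1, 278 in G7 and 276 in NS libraries on average, and the other 4 groups are lowest in G1 and highest in NS libraries.

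Levels of different genes were compared as CPM per kilobase of merged exons. Merged exons join all annotated transcripts of a gene and can be longer than the transcript made, so the order depends on that length. In NS cells PHGDH had 246 CPM over 9217 bases (26.7 per kilobase), and PSAT1 had 252 CPM over 2188 bases. Among the 38 tested genes in NS cells the level per kilobase ran from 0.670 (VLDLR) to 218 (ATF4), with a median of 16.9. ATF4 was highest in each group, at 149 ± 2.99 in G1, 191 ± 4.57 in G7 and 218 ± 4.84 CPM per kilobase in NS cells (SD, n = 3 each). In NS cells PSAT1 was next, at 115 ± 2.1, then SLC38A2, at 97.6 ± 4.39, and CEBPB, at 93.1 ± 5.45, the last 2 lying within their spread of each other. In G1 cells CEBPB was next to ATF4, at 107 ± 2.68 CPM per kilobase, then SLC38A2 at 78.6 ± 2.95, and PSAT1 was at 50.8 ± 1.67. ASNS stood at 4.08 ± 0.362 in G1, 15.4 ± 1.16 in G7 and 22.0 ± 0.462 CPM per kilobase in NS cells. The kinase genes were low, EIF2AK4 at 5.20 ± 0.243 and EIF2AK3 at 2.33 ± 0.126 in G1 cells, against 4.06 ± 0.0922 and 3.43 ± 0.163 CPM per kilobase in NS cells.

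Related genes outside the 39 were read from lists drawn up by role, to be set beside the 30.4% higher and 28.7% lower of all genes tested with G1. With G1, eIF2 control had 10 higher and 6 lower of 18 tested, with a median log2 change of 0.17. The falls included DNAJC3, an ER-stress-induced inhibitor of PERK, at -1.0 (adjusted p = 2.79e-12), and DELE1, which relays mitochondrial stress to an eIF2 alpha kinase, at -0.49 (adjusted p = 5.53e-07). PPP1CA, a catalytic phosphatase subunit that works with GADD34, rose by 0.47 (adjusted p = 8.91e-08). Among partner and stress factors, 5 higher and 9 lower of 22 were called with G1 (median -0.03). ATF3, a stress-induced ATF factor, changed by -1.03 (adjusted p = 0.000129), on 22 to 31 counts in G1 libraries. XBP1, the factor of the IRE1 branch of the ER stress response, changed by -0.99 (adjusted p = 4.35e-12), and FOS by -0.91 (adjusted p = 1.22e-07). The largest rise in this list was that of FOSL1, at 0.87 (adjusted p = 1.22e-06).

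Targets of the other ER stress factors, ATF6 and XBP1, had 1 higher and 15 lower of 16 tested with G1 (median -0.89) and 0 higher and 15 lower of 16 with G7 (median -0.56). Beside them the 38 network genes had medians of -0.56 and -0.16. HERPUD1, of ER-associated degradation, changed by -2.54 with G1 and -0.70 with G7 (adjusted p = 5.24e-18 and 1.88e-09), and the ER co-chaperone gene DNAJB9 by -1.94 and -0.67 (adjusted p = 2.08e-12 and 6.47e-06). Cytosolic tRNA synthetases, several of which are known ATF4 targets, were split with G1, with 8 higher and 9 lower of 20 (median -0.04). WARS changed by -0.95 (adjusted p = 1.64e-09), AARS by -0.81 (adjusted p = 4.35e-12) and SARS by -0.68 (adjusted p = 1.29e-10), which load tryptophan, alanine and serine. With G7 the synthetases had 2 higher and 6 lower of 20. Over all genes tested, 30.4% were higher and 28.7% lower with G1, and 13.1% higher and 9.64% lower with G7.

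Among all genes tested 30.4% were higher and 28.7% lower with G1, and the counts of the wider amino acid lists are given beside that. With G1, serine, glycine and folate genes had 9 higher and 4 lower of 18 (median 0.23), where the glycine cleavage gene AMT changed by -1.79 (adjusted p = 1.15e-06) and TYMS, thymidylate synthase, by 1.16 (adjusted p = 5.39e-08). Genes of proline, aspartate, glutamine and arginine handling had 5 higher and 5 lower of 15 (median 0.00), near the shares over all genes, with ARG2, a mitochondrial arginase, at -1.35 (adjusted p = 6.71e-06), OAT, ornithine aminotransferase, at 0.67 (adjusted p = 2.23e-09) and GOT2, mitochondrial aspartate aminotransferase, at 0.67 (adjusted p = 1.30e-10). Methionine, cysteine and glutathione genes had 5 higher and 3 lower of 13 (median -0.01). Of these, GCLM, a subunit of the glutathione-synthesising ligase, rose by 0.91 (adjusted p = 1.22e-11), GSR, glutathione reductase, by 0.68 (adjusted p = 8.88e-11) and GGCT, a gamma-glutamyl cyclotransferase, by 0.72 (adjusted p = 8.88e-06). GCLC, the other subunit of that ligase, was lower, at -0.54 (adjusted p = 4.23e-08) with G1 and -0.27 with G7 (adjusted p = 0.000675).

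Amino acid transporters outside the 39 had 10 higher and 6 lower of 24 with G1 (median 0.09), against 7 lower and 0 higher of the 8 within them. The log2 changes of those 24 ran from -2.63 to 1.44, so the largest change was a fall. The glutamate transporter SLC1A3 rose by 1.44 (adjusted p = 2.58e-07), and the mitochondrial carriers SLC25A13, for aspartate and glutamate, and SLC25A15, for ornithine, by 1.07 (adjusted p = 1.17e-11) and 0.96 (adjusted p = 1.01e-05). Genes through which mTORC1 senses amino acids had 8 higher and 6 lower of 26 (median 0.07), near the 30.4% higher and 28.7% lower of all genes tested, with the arginine sensor paralog CASTOR2 at 0.70 (adjusted p = 8.37e-05), the GTPase RRAGD at -0.62 (adjusted p = 7.40e-05) and the cap-binding EIF4E at 0.62 (adjusted p = 1.37e-07). With G7 the folate list had 4 higher and 3 lower of 18, the proline list 4 higher and 2 lower of 15 and the glutathione list 4 higher and 3 lower of 13. The transporters had 4 higher and 1 lower of 24 and the mTORC1 genes 3 higher and 0 lower of 26 with G7. Over all genes 13.1% were higher and 9.64% lower with G7, and with so few genes in a list counts near these shares are no result about it. The difference between these lists and the network was not tested.

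In the direct comparison of the hairpins, G1 was lower than G7 by a median log2 difference of -0.36 over the 38 genes, against -0.01 over all genes. A fall of more than 2-fold was called for 6 of them, against 2.44% of all genes, and a rise of that size for 0 of them, against 0.641% of all genes. The 6 were CHAC1, DDIT3 (-2.42, adjusted p = 2.61e-06), NUPR1 (-1.98, adjusted p = 3.53e-07), ASNS, GDF15 and DDIT4 (-1.0, adjusted p = 2.96e-05). EIF2S1 (0.57, adjusted p = 4.99e-08) and PSPH (0.38, adjusted p = 1.15e-05) were higher with G1, as were EIF2AK4 and ALDH18A1. ALDH18A1 differed by 0.14 (adjusted p = 0.0188), a call that ended with upper quartile scaling (0.08, adjusted p = 0.152), in libraries thinned to 1 depth (0.13, adjusted p = 0.0503), without G1 replicate 2 (0.12, adjusted p = 0.078) or without G7 replicate 3 (0.11, adjusted p = 0.068). CEBPB, SLC7A11, SLC7A5 and VLDLR were not called between the hairpins. SLC7A5 had -0.08 ± 0.0436 (adjusted p = 0.144), which passed with upper quartile scaling (-0.14, adjusted p = 0.0159). VLDLR had -0.22 ± 0.132 (adjusted p = 0.19), which passed in libraries thinned to 1 depth (-0.41, adjusted p = 0.0361). Among the genes called lower, the call ended in 9 of 18 alternatives for SLC1A4 (-0.36, adjusted p = 0.0454) and in 7 for EIF2AK3 (-0.23, adjusted p = 0.028). It ended in 4 for CBS (-0.50, adjusted p = 0.0132) and in 3 each for PHGDH (-0.18, adjusted p = 0.0103) and XPOT (-0.14, adjusted p = 0.00926).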

How the data were processed

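RNA was sequenced from 9 HCC827 libraries, 3 each with hairpin G1, hairpin G7 and hairpin NS. The deposited table holds whole-number counts per gene for all 9. The submitters' processing notes name TopHat2 2.1.0, HTSeq 0.6.0 and the hg38 build. The annotation release, the read filters and the strand setting of the counting are not stated in the sources read for this work. Rows were matched to GENCODE release 29 by gene ID (57055 of 60675), and the rest hold 0.025% of counts. Exons of 16 of the 39 genes overlap exons of another gene, on the same strand in 4.

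Counts were tested with edgeR 4.0.16 in R 4.3.3, using filterByExpr, TMM scaling and a quasi-likelihood F test over all 9 libraries. The 3 contrasts were G1 minus NS, G7 minus NS and G1 minus G7. P-values were adjusted by Benjamini-Hochberg over 13264 genes, with a threshold of 0.05. An SE is the log2 change divided by the square root of F. Fold changes carry edgeR's prior count. The common dispersion was 0.00217. A count of 3, the limit that 0 reads allow, is 0.139 to 0.227 CPM over the libraries, and it covers counting error only. The code was tested on simulated data.

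Members and lists were chosen with earlier results of these data known. Genes given library by library were the 4 of each role group with the smallest p in G1 minus NS, with ATF4 and both kinase genes in any case. From outside lists came at most the 3 called genes with the largest absolute log2 change in G1 minus NS among those at 2 CPM or more. SLC7A11, PSPH, MARS, GCLC and FOSL1 were added after their values were seen. Replicate numbers were not used to pair libraries in the main test. DESeq2 1.42.0, other scalings and filters, thinning to 12701561 counts and the loss of each library were tried. For 1 gene that met the naming rule, the result is not reported here.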

Additional observations from a re-analysis of the deposited data

How the results depend on the processing

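Over 18 alternatives per contrast, 1968 values of single genes kept their side of the threshold, 60 lost the call and 24 gained one. A reversal of direction in which either value was called occurred 0 times. Uncalled values that changed sign were counted as kept, such as SLC7A11 in G1 minus NS (-0.02, at most 0.005 in an alternative). A call changed in at least 1 alternative for 3 of the 38 genes in G1 minus NS, 12 in G7 minus NS and 8 in G1 minus G7. With upper quartile scaling the median log2 change of the 38 genes was -0.64 in G1 minus NS and -0.42 in G1 minus G7. The median over all genes tested moved as well, from -0.01 to -0.10 and from -0.01 to -0.07. Leaving out 1 library at a time gave medians between -0.39 and -0.35 in G1 minus G7, and 1 to 2 genes called higher in G7 minus NS. In the same runs 31 to 32 genes were lower in G1 minus NS, 14 to 19 in G7 minus NS and 25 to 30 in G1 minus G7. The open base of the promoter core set at C left 5 genes with a match in place of 8.

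Deviations of same-numbered libraries from their group means had correlations of -0.08 to 0.20, 2 of 9 above 0.1. Between G1 and G7 these were 0.03, 0.14 and 0.20, against -0.19 to 0.08 for different numbers. Same-numbered pairs with NS ran from -0.08 to 0.05. With 3 libraries per group these values cannot settle whether the numbers pair samples. With the replicate number as a block, 5 genes were higher and 32 lower in G1 minus NS, 1 and 20 in G7 minus NS, and 4 and 29 in G1 minus G7, with 7909, 3117 and 6069 genes called in all.

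Groups of 3 libraries limit all tests, and the lowest counts, those of DDIT3, NUPR1 and CHAC1 with G1, limit the precision of the largest changes. Values of G7 minus NS near the threshold moved across it most often.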
